A study of Mus musculus with 12 samples.

Results

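The SLC25 family holds the carriers that move nucleotides, phosphate, amino acids, carboxylates, iron and cofactors across the inner mitochondrial membrane, and it includes the uncoupling proteins. Its members were taken as the genes whose mouse symbol is Slc25a followed by a number, together with Ucp1, Ucp2 and Ucp3. This gave 50 genes of the 48709 gene IDs counted, and 41 of the 50 had enough counts to be tested among 14408 genes. They were measured by RNA sequencing in cultured mouse embryonic fibroblasts (MEFs) of the C57BL/6 strain, with 3 libraries in each of 4 groups. WT cells and TAZKo cells were each either kept in normoxia or held in a hypoxia workstation for 24 hours. TAZKo denotes cells without tafazzin, the enzyme that remodels cardiolipin, a lipid of the inner mitochondrial membrane, and the WT cells are isogenic with them. The cells grew in DMEM with fetal bovine serum. The labels give neither the oxygen level nor how many clones or embryos the cells came from, so p-values measure the spread between these libraries, which may be technical.

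SLC25 proteins are made in the cytosol, pass the outer membrane through the TOM complex, are escorted by small TIM chaperones and enter the inner membrane through the TIM22 complex. The ADP/ATP carrier exports the ATP made by oxidative phosphorylation in exchange for ADP, and its crystal structure holds tightly bound cardiolipin. Uncoupling proteins are relatives of these carriers, and Ucp1 is the member that lets brown fat make heat. Hypoxia-inducible factors, whose HIF-1α subunit is named in the title of the study, bind DNA at a short core written ACGTG or GCGTG.

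The libraries held 21039451 to 31204510 counts, so that 3 counts, taken as the floor of detection, were worth 0.0927 to 0.15 CPM (counts scaled to a common library total). Such floors cover counting error only. Levels of Taz, the gene of tafazzin, were 38.0, 33.3 and 32.7 CPM in the libraries labelled WT in normoxia and 45.8, 39.8 and 41.0 CPM in those labelled TAZKo. In hypoxia they were 25.5, 26.4 and 23.5 CPM with the WT label and 33.6, 32.8 and 35.1 CPM with the TAZKo label. Taz was thus called higher under the TAZKo label, by 0.29 and 0.43 log2 in normoxia and hypoxia (edgeR adjusted p = 0.0139 and 0.00112). A count over a whole gene does not show whether a small deletion is present, and these counts do not show that the labels are right, so groups are named by their labels and each direction between labels rests on them. Of 10 fibroblast markers, Col1a1, Col3a1, Fn1, Vim, Dcn, Pdgfra and Pdgfrb lay between 20.2 and 7798 CPM in every library, whereas Lum and Thy1 stayed under 0.3 CPM and Col1a2 between 1.51 and 5.93 CPM. The summed fibroblast list spanned 10376 to 13260 CPM over the groups, but its 8 tested genes moved in both directions: 4 were higher and 2 lower under TAZKo in normoxia, 3 and 2 in hypoxia, and hypoxia gave 2 higher and 5 lower under WT and 1 and 4 under TAZKo. Mean Col1a1 was 2835 CPM in WT and 1153 CPM in TAZKo normoxia, mean Pdgfrb 49.6 and 104 CPM, and Vim was higher in WT hypoxia by 1.20 log2 (edgeR adjusted p = 2.91e-09). Defining markers of leukocytes (Ptprc, Adgre1), endothelium (Cdh5, Tie1) and cardiac muscle (Myh6, Actc1) lay between 0 and 0.0692 CPM. Some listed markers of other types were detected and moved with the groups: the neural list (Nes and Tubb3, with Sox2 near 0) summed to 212 to 252 CPM in normoxia and 334 to 375 CPM in hypoxia, and the leukocyte list (Cd68) to 2.93 to 4.33 and 5.98 to 7.97 CPM. The adipocyte list (mainly Fabp4) summed to 0.0867 to 0.79 CPM in normoxia, 2.62 to 4.05 CPM in WT hypoxia and 0.875 to 1.12 CPM in TAZKo hypoxia. The endothelial list (mainly Kdr) summed to 2.72 to 3.9 CPM under WT and 1.17 to 1.73 CPM under TAZKo, although Pecam1 of that list was higher under TAZKo in normoxia by 1.38 log2 (edgeR adjusted p = 0.0389). Of the muscle list only Ttn was tested, at −1.56 under TAZKo in normoxia (edgeR adjusted p = 0.0282) and means of 0.379 and 0.127 CPM. The epithelial list (Krt18) summed to 98 to 105 CPM in TAZKo normoxia and 117 to 152 CPM in the other groups. Their part in the results below was not tested. WT normoxia library 1 stood apart on the third principal component, at 26.1 against −10.2 to 8.18 in the other 11 libraries. Values without it are given for some of the results that it changed.

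The upstream sequences of 4 members are shown because these genes carry the main patterns below and their RefSeq start windows lie wholly outside the annotated gene. Slc25a48 and Slc25a1 were higher in hypoxia under both labels, Slc25a12 was lower in hypoxia under both labels, and Slc25a5 differed by label without a call for hypoxia. The WT hypoxia call of Slc25a48 was lost in 19 of 20 other fits described below. Each sequence is the 250 bases before the RefSeq start (build GRCm38.p6), 5′ to 3′ along the gene, in lower case, with capitals marking every ACGTG or GCGTG on either strand (a palindromic CACGTG counts on both strands). The windows are chr13:56438105-56438354 on the + strand, chr16:17928220-17928469 on the − strand, chr2:71367756-71368005 on the − strand and chrX:36795347-36795596 on the + strand. For Slc25a5 the direction rests on the RefSeq strand, since a check against annotated transcripts found no match.
Slc25a48: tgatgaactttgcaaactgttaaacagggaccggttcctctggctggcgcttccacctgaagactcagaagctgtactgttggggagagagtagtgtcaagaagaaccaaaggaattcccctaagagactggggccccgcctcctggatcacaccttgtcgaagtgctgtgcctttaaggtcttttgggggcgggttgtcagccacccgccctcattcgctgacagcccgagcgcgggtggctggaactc
Slc25a1: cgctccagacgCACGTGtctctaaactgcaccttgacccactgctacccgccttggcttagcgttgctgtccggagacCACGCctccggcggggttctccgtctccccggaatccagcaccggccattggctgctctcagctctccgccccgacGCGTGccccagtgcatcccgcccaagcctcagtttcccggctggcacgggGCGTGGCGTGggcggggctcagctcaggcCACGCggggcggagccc
Slc25a12: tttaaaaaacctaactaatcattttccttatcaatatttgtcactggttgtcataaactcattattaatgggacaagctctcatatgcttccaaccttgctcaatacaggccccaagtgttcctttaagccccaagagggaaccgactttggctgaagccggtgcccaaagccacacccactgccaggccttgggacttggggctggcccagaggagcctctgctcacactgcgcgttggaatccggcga
Slc25a5: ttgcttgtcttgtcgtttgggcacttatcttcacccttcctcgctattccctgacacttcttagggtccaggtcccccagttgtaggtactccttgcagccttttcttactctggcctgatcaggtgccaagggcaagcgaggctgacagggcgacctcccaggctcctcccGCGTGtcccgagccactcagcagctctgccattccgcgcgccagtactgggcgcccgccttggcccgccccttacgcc

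The Slc25a48 window held 0 matches and the Slc25a1 window held 7, of which 2 were ACGTG and 5 were GCGTG. The Slc25a12 window held 0 and the Slc25a5 window 1, a GCGTG. Across RefSeq, 38.6% of 32851 windows of this length held at least 1 match. Among members, 28 of 49 windows (57.1%) held one, and by gene 23 of 39 with a window did. Of the members called higher in WT hypoxia, 4 of 6 with a window held a match, as did 8 of 13 called lower. In TAZKo hypoxia the numbers were 2 of 4 called higher and 8 of 11 called lower. The windows shown were chosen with the values known, and a match describes letters, not a binding site.

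Per kilobase of annotated exon, Slc25a4 was the most abundant member in all 4 groups, with a mean of 299 CPM per kb in WT normoxia. Slc25a5 followed at 111 CPM per kb, Slc25a3 at 96.2, Slc25a39 at 84.5 and Ucp2 at 63.6 CPM per kb. Slc25a3, Slc25a4 and Slc25a5 are the phosphate carrier and the ADP/ATP carriers that feed and drain the ATP synthase. Together they made up 48.3% (normoxia) and 48.8% (hypoxia) of the summed level per kb of the 41 tested members under WT, and 43.9% and 45.2% under TAZKo. At the low end, Slc25a35 had a mean of 0.158 CPM per kb in WT normoxia. The other 9 members were below the filter on low counts, with at most 10 counts in any library: Slc25a2, Slc25a18, Slc25a21, Slc25a31, Slc25a34, Slc25a41, Slc25a54, Ucp1 and Ucp3. Slc25a21, the oxodicarboxylate carrier, had 0 counts in all 12 libraries, which allows up to 3 counts in each.

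**Figure D1:**
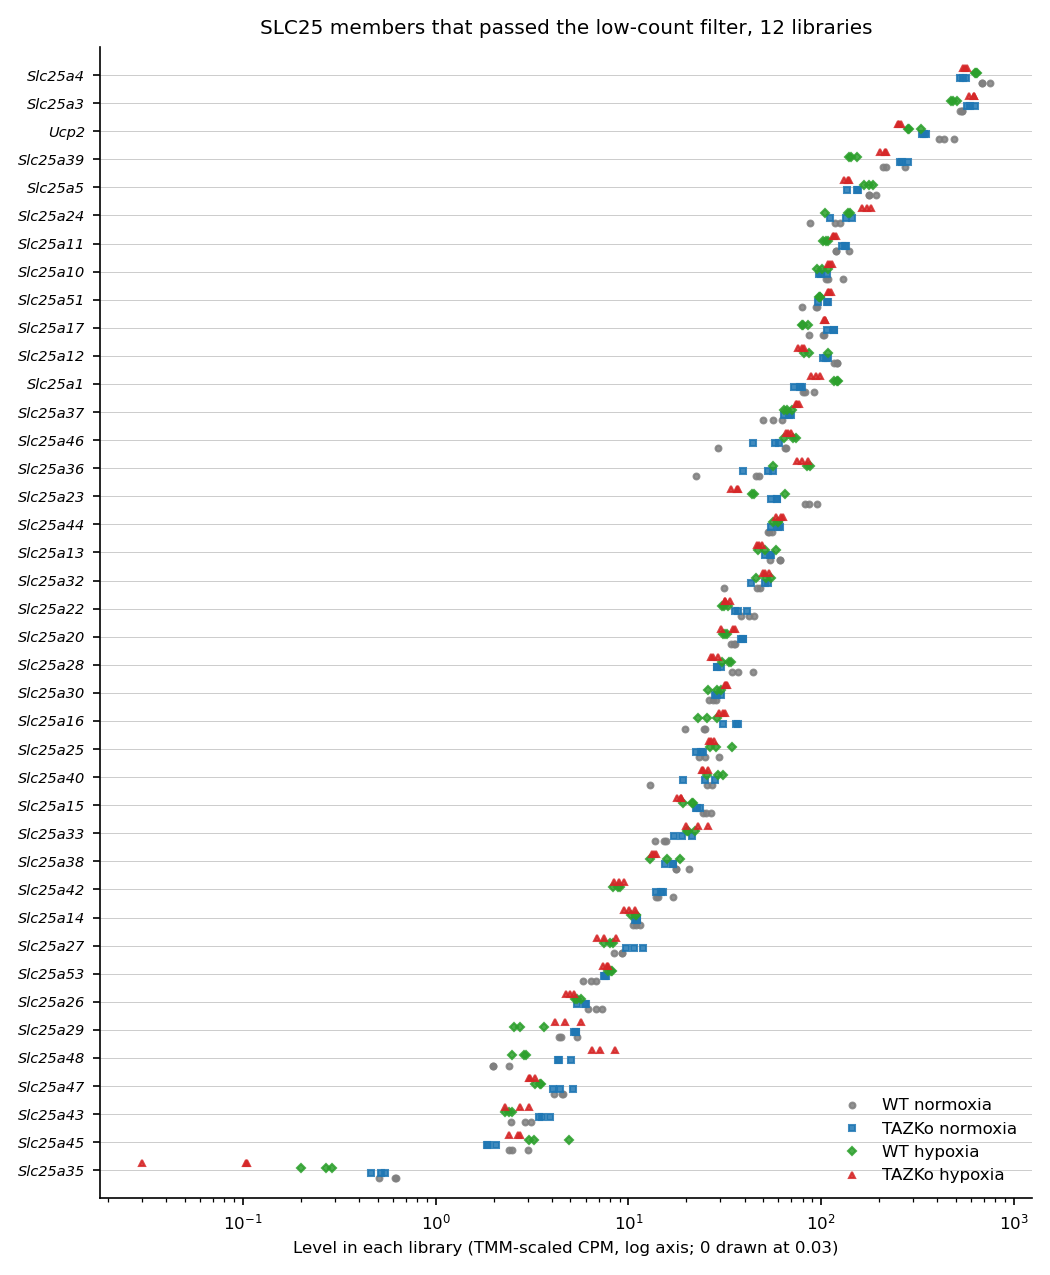
Level of 40 of the 41 tested members in each of the 12 libraries (TMM-scaled CPM, horizontal log axis, a value of 0 drawn at 0.03), ordered by their mean, with 1 colour and marker per group. Slc25a4 lies highest, between 523 and 747 CPM, and Slc25a35 lowest, between 0 and 0.619 CPM.

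In normoxia, 13 of the 41 tested members differed between the labels (edgeR adjusted p under 0.05), 8 higher and 5 lower under TAZKo, against a background of 30.4% of all genes called (15.6% higher, 14.9% lower). In hypoxia, 14 members differed, 6 higher and 8 lower, against 32.8% of all genes (15.8% higher, 16.9% lower). These shares, 31.7% and 34.1% of members, lay near the background. Hypoxia against normoxia under the WT label gave 22 called members, 7 higher and 15 lower, that is 53.7% against a background of 51% (26% higher, 25% lower). Under the TAZKo label it gave 17, 4 higher and 13 lower, that is 41.5% against 43.8% (22.2% higher, 21.6% lower). The lower calls under both labels include Slc25a35, which passed the filter on low counts through its normoxia libraries. The median log2 difference of the tested members was −0.14 in WT hypoxia, where the median of all genes was 0.01, and −0.12 in TAZKo hypoxia, where it was −0.01. Between labels the members' medians were 0.05 in normoxia and −0.04 in hypoxia, against 0.01 and −0.01 for all genes. The 3 libraries of the groups compared did not overlap for 23 and 24 members between labels in normoxia and hypoxia, that is 56.1% and 58.5% against 42.8% and 50% of all genes. For hypoxia under WT and TAZKo they did not overlap for 27 and 28 members, 65.9% and 68.3% against 54.6% and 61.1%. In a bulk sample, fewer cells of a kind and less RNA per cell cannot be told apart.

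The split of hypoxia calls moved with the scaling between libraries, while all alternatives that gave a split kept more members lower than higher. Upper-quartile scaling gave 5 higher and 20 lower in WT hypoxia, and library size alone gave 4 higher and 21 lower there and 3 higher and 20 lower in TAZKo hypoxia. All genes called moved the same way, from 3750 higher and 3605 lower in WT hypoxia to 3277 and 4266 with upper-quartile scaling and 2966 and 4817 with library size alone, and from 3198 and 3111 in TAZKo hypoxia to 2470 and 4393 with the latter. Scaling by library size alone shifted the all-gene median difference by −0.106 under WT and −0.0946 under TAZKo. For the label difference in hypoxia, both of these scalings gave 8 members higher and 6 lower, a reversal of the 6 and 8 above, while all genes went from 2283 higher and 2440 lower to 2416 and 2252 and to 2453 and 2225. Without WT normoxia library 1, 13 members (7 higher, 6 lower) and 22 members (11 higher, 11 lower) differed between labels in normoxia and hypoxia, and 19 (7 higher, 12 lower) and 22 (7 higher, 15 lower) were called for hypoxia under the WT and TAZKo labels. All genes called without that library were 4961, 6149, 7679 and 7678, against 4384, 4723, 7355 and 6309. Without TAZKo hypoxia library 3, the label difference in hypoxia held for 9 members, 5 higher and 4 lower (3804 of all genes). In normoxia it held for 7 members, 2 higher and 5 lower, without TAZKo normoxia library 2 (3495 of all genes). It held for 8, 3 higher and 5 lower, without TAZKo normoxia library 3, TAZKo hypoxia library 1 or 2, or WT hypoxia library 2. All genes called in the latter fits were, in that order, 3349, 4150, 4178 and 4320. The split in normoxia turned to 4 higher and 10 lower without WT hypoxia library 1 (2044 and 2675 of all genes) and to 2 higher and 9 lower without WT normoxia library 3 (1734 and 2427).

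Among members, no calls conflicted in direction between conditions or labels. Overlaps of calls, and calls that held in other fits, were not counted over all genes. The numbers in this paragraph therefore describe the members alone and have no background beside them. Of the 13 members called between labels in normoxia and the 14 in hypoxia, 7 were common: Slc25a48, Slc25a17 and Slc25a3 were higher and Slc25a4, Slc25a5, Slc25a23 and Ucp2 were lower under TAZKo in both, and 0 were called in opposite directions. Of the 22 members called for hypoxia under WT and the 17 under TAZKo, 13 were common. Slc25a1, Slc25a36 and Slc25a48 were higher in hypoxia under both labels, and Slc25a11, Slc25a12, Slc25a15, Slc25a22, Slc25a23, Slc25a35, Slc25a39, Slc25a42, Slc25a47 and Ucp2 were lower. Of these, the WT call of Slc25a48 was lost in 19 of 20 other fits. Slc25a35 passed the filter on low counts through its normoxia libraries, and both its hypoxia calls are among those counted next as held. Under every other fit (scaling, test, filter, covariate or choice of libraries), 7 of the 13, 8 of the 14, 14 of the 22 and 13 of the 17 calls held, and a call is said below to hold under every alternative in this sense, which leaves aside the 2-fold threshold. The 10 members without a call in this fit were Slc25a10, Slc25a13, Slc25a14, Slc25a25, Slc25a30, Slc25a32, Slc25a38, Slc25a40, Slc25a44 and Slc25a46.

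Whether the hypoxia response of a member differed between the labels was tested as an interaction. No member passed (0 of 41 by edgeR and 0 by DESeq2), against 2.43% of all genes (0.722% higher, 1.71% lower), and 7 members had an unadjusted p under 0.05, as had 2273 of the 14408 genes. These were Slc25a1, Slc25a4, Slc25a10, Slc25a29, Slc25a35, Slc25a39 and Slc25a53, with edgeR adjusted p from 0.179 to 0.316. With no filter on low counts, Slc25a39 alone passed, at a log2 difference of 0.39 and an edgeR adjusted p of 0.0195. The responses under the labels are therefore given side by side for many members, and a call under 1 label alone does not show a difference between them.

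**Figure D2:**
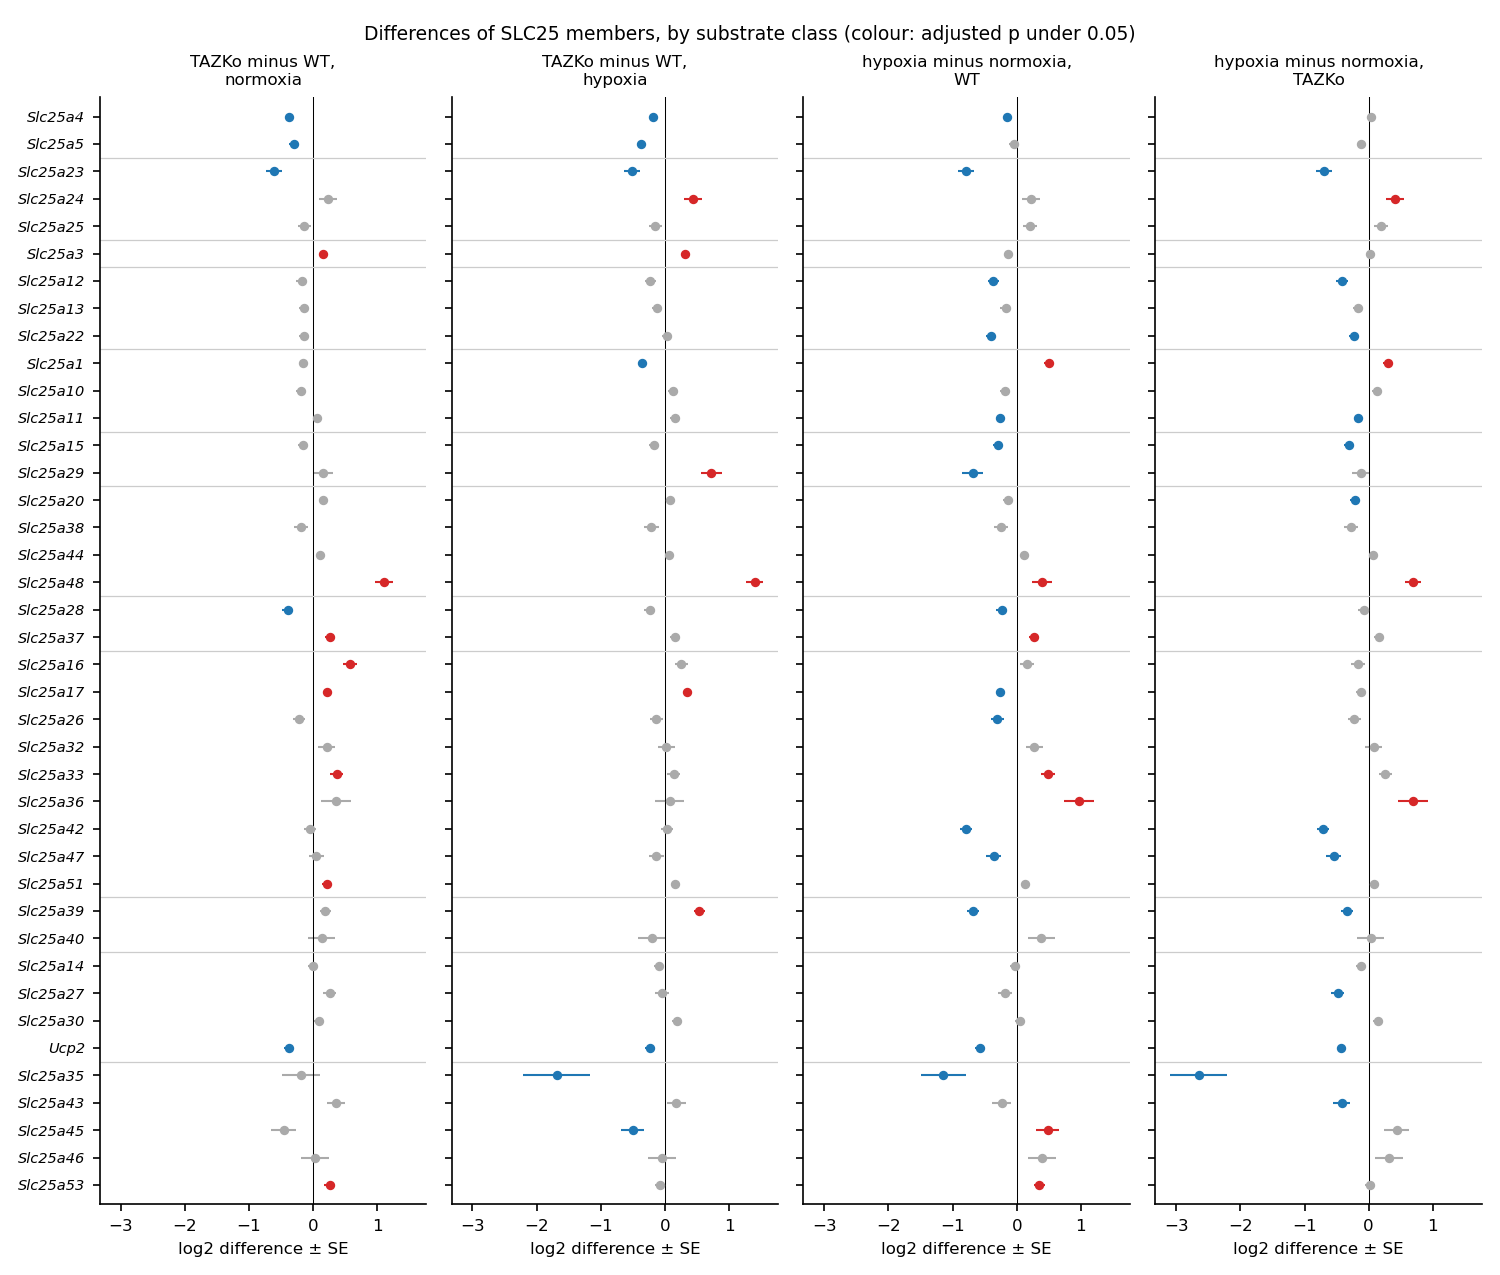
Fitted log2 difference ± SE of 40 of the 41 tested members in the 4 pairwise comparisons, grouped by substrate class (grey lines part the classes, from the ADP/ATP carriers at the top to members without an assigned substrate at the bottom). Red (higher) and blue (lower) points passed an edgeR adjusted p of 0.05 and grey points did not. In hypoxia 15 of 22 calls under the WT label and 13 of 17 under the TAZKo label lie left of 0, Slc25a35 among both.

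Both tested ADP/ATP carriers were lower under the TAZKo label in normoxia and in hypoxia. Slc25a4 (ENSMUSG00000031633, chr8:46206797-46211284), the form dominant in heart and muscle, was at 747, 684 and 679 CPM in WT normoxia and 523, 563 and 543 CPM in TAZKo normoxia. In hypoxia it was at 638, 639 and 630 CPM under WT and 560, 573 and 545 CPM under TAZKo. All 6 WT libraries lay above all 6 TAZKo libraries. The log2 difference between labels was −0.37 ± 0.054 (SE, n = 3 per group, edgeR adjusted p = 0.000153) in normoxia and −0.18 ± 0.054 (edgeR adjusted p = 0.018) in hypoxia. The hypoxia call ended without TAZKo hypoxia library 3 (edgeR adjusted p = 0.062) and with no filter (0.111). Tested genes of chromosome 8 had a median label difference of −0.161 in normoxia and −0.145 in hypoxia, whose part in this result was not tested. Slc25a4 was lower in hypoxia under WT, with a log2 difference of −0.15 (edgeR adjusted p = 0.0366), a call that ended without WT normoxia library 1 (0.085) and with sequencing lane as a covariate (0.059). Under TAZKo the hypoxia difference was 0.04 (edgeR adjusted p = 0.555).

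Slc25a5 (ENSMUSG00000016319, chrX:36795651-36798807), the form found widely in proliferating cells, was at 176, 192 and 178 CPM in WT normoxia and 153, 155 and 135 CPM in TAZKo normoxia. Its hypoxia levels were 176, 187 and 166 CPM under WT and 132, 139 and 138 CPM under TAZKo. The WT and TAZKo libraries did not overlap in either condition. The log2 difference between labels was −0.30 ± 0.068 in normoxia and −0.37 ± 0.068 in hypoxia (edgeR adjusted p = 0.00436 and 0.000928), and both calls held under every alternative. Hypoxia differences of −0.05 under WT and −0.12 under TAZKo did not pass (edgeR adjusted p = 0.597 and 0.178). Of the 50-base words in Slc25a5, 46.6% also occur in processed pseudogenes, so its counts are uncertain. Of those copies Gm5560 had 11 to 49 counts in a library, and Slc25a5-ps and Gm5529 had 0 to 3.

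The balance of the 2 ADP/ATP carriers separated in 1 of 4 comparisons. The ratio of Slc25a4 to Slc25a5 counts was 4.24, 3.56 and 3.81 (normoxia) and 3.62, 3.43 and 3.78 (hypoxia) under WT, and 3.41, 3.62 and 4.01 (normoxia) and 4.25, 4.11 and 3.96 (hypoxia) under TAZKo. Only the labels in hypoxia separated, where all 3 TAZKo ratios exceeded the WT ratios by a mean log2 difference of 0.19 (exact permutation p = 0.1, the smallest that 3 against 3 can give, adjusted p = 0.16 over 8 ratio tests). The other 3 comparisons overlapped, with log2 differences of −0.07, −0.10 and 0.16 (exact permutation p = 0.6, 0.4 and 0.2). The testis form Slc25a31 had no test.

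The phosphate carrier Slc25a3, which supplies phosphate to the ATP synthase, went the other way and was higher under TAZKo. Its levels were 540, 537 and 524 CPM (normoxia) and 507, 482 and 473 CPM (hypoxia) under WT, and 624, 591 and 573 CPM (normoxia) and 617, 623 and 581 CPM (hypoxia) under TAZKo. Every TAZKo library exceeded every WT library. The label difference was 0.32 ± 0.054 in hypoxia (edgeR adjusted p = 0.000526) and held under every alternative. In normoxia it was 0.16 ± 0.054 (edgeR adjusted p = 0.0391), a call lost in 11 of the 12 fits without 1 library, all but that without WT normoxia library 1, with edgeR adjusted p up to 0.26. Slc25a3 lies on chromosome 10, whose tested genes had median label differences of 0.314 and 0.286, in normoxia and hypoxia, against 0.16 and 0.32 for Slc25a3 itself, and the part of this in the result was not tested. In WT hypoxia Slc25a3 differed by −0.13 without a call (edgeR adjusted p = 0.0564), and passed when the replicate number was a block (0.0264).

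The calcium-regulated ATP-Mg/phosphate carriers, which set the adenine nucleotide pool of the matrix, were called in opposite directions. Slc25a23 was at 94.8, 82.6 and 86.7 CPM (normoxia) and 65.1, 43.6 and 44.7 CPM (hypoxia) under WT, and 59.2, 55.0 and 59.3 CPM (normoxia) and 36.5, 36.9 and 34.1 CPM (hypoxia) under TAZKo. It was lower under TAZKo in both conditions and lower in hypoxia under both labels. The label differences were −0.61 and −0.51 (edgeR adjusted p = 0.00181 and 0.00635) and the hypoxia differences −0.79 under WT and −0.69 under TAZKo (edgeR adjusted p = 0.000116 and 0.000505). All 4 calls held under every alternative. Lowest in TAZKo hypoxia, Slc25a23 stood there at a mean of 35.9 CPM against 88.0 CPM in WT normoxia.

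Slc25a24, a paralogue of Slc25a23 with the same kind of substrate, was highest in TAZKo hypoxia, at 163, 182 and 173 CPM. It was at 87.1, 125 and 118 CPM in WT normoxia, 111, 144 and 135 CPM in TAZKo normoxia and 104, 141 and 138 CPM in WT hypoxia. In each of the 4 groups library 1 was the lowest. The label difference in hypoxia was 0.43 (edgeR adjusted p = 0.0285) and the hypoxia difference under TAZKo 0.41 (edgeR adjusted p = 0.0281). The label call ended without TAZKo hypoxia library 1, 2 or 3 or WT hypoxia library 1 (edgeR adjusted p 0.0562 to 0.134). The hypoxia call ended without TAZKo hypoxia library 1, 2 or 3, TAZKo normoxia library 1 or 3, or WT hypoxia library 3 (0.0519 to 0.17), and with library size alone (0.0681). The label difference in normoxia, 0.24, and the hypoxia difference under WT, 0.21, did not pass (edgeR adjusted p = 0.224 and 0.219) but did with the replicate block (0.0141 and 0.0166). The third tested paralogue, Slc25a25, stayed uncalled, and Slc25a41 and Slc25a54 had at most a few counts.

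Of the 3 tested aspartate and glutamate carriers, 2 were lower in hypoxia under both labels (25% and 21.6% of all genes were called lower under WT and TAZKo) and 0 were called between labels. Slc25a12, which exports aspartate in exchange for glutamate in the malate-aspartate shuttle, was at 120, 116 and 121 CPM in WT normoxia and 102, 108 and 106 CPM in TAZKo normoxia. It was at 109, 86.9 and 81.1 CPM in WT hypoxia and 81.4, 79.5 and 75.4 CPM in TAZKo hypoxia. It was lower in hypoxia under both labels, with log2 differences of −0.37 and −0.42 (edgeR adjusted p = 0.00308 and 0.00166). The label differences, −0.18 and −0.23, did not pass (edgeR adjusted p = 0.144 and 0.0637). Slc25a22, a glutamate carrier, had means of 41.9 (normoxia) and 31.5 CPM (hypoxia) under WT and 38.0 (normoxia) and 32.3 CPM (hypoxia) under TAZKo, with hypoxia differences of −0.41 and −0.23 (edgeR adjusted p = 0.000398 and 0.0192). Slc25a13, the partner of Slc25a12 best known from liver, was not called, at −0.18 and −0.16 (edgeR adjusted p = 0.0818 and 0.119). These calls for Slc25a12 and Slc25a22 held under every alternative. Of the 4 soluble enzymes of the shuttle, Got1, Got2 and Mdh2 were lower under TAZKo in normoxia and all 4 in hypoxia, against 14.9% and 16.9% of all genes called lower. The part of label shifts shared by whole chromosomes, as on chromosomes 8 and 19, was not tested for these enzymes. Mdh1 and Mdh2 were lower in hypoxia under WT and Mdh1 under TAZKo, against 25% and 21.6% of all genes called lower.

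Among the carboxylate carriers, the citrate carrier Slc25a1 was higher in hypoxia and the oxoglutarate carrier Slc25a11 lower. Slc25a1, which exports citrate for fatty acid synthesis, was at 92.1, 82.9 and 80.2 CPM (normoxia) and 122, 121 and 117 CPM (hypoxia) under WT, and 79.0, 72.6 and 77.7 CPM (normoxia) and 98.2, 94.4 and 89.0 CPM (hypoxia) under TAZKo. Every hypoxia library exceeded the normoxia libraries of its label, and the WT libraries exceeded the TAZKo libraries in each condition. Hypoxia raised it by 0.50 ± 0.066 log2 under WT (edgeR adjusted p = 2.94e-05) and by 0.30 ± 0.066 under TAZKo (edgeR adjusted p = 0.00242). The difference of these responses, −0.20, did not pass (edgeR adjusted p = 0.316). The label difference was −0.35 in hypoxia (edgeR adjusted p = 0.000996) and −0.15 in normoxia, the latter without a call (0.0955, and 0.0489 with the replicate block).

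Slc25a11, which exchanges oxoglutarate for malate, had means of 126 (normoxia) and 105 CPM (hypoxia) under WT and 132 (normoxia) and 117 CPM (hypoxia) under TAZKo. The hypoxia difference was −0.26 under WT (edgeR adjusted p = 0.00386). Under TAZKo it was −0.17 (edgeR adjusted p = 0.0446), a call that ended without TAZKo hypoxia library 2 or 3 or TAZKo normoxia library 3 (0.0538 to 0.0646) and with 5 other settings (0.0617 to 0.0783). The dicarboxylate carrier Slc25a10 had differences of opposite sign, −0.18 under WT and 0.13 under TAZKo, neither called (edgeR adjusted p = 0.0682 and 0.197), although the first passed with the replicate block (0.0185). Its label difference in normoxia, −0.18 (edgeR adjusted p = 0.0996), also passed with the block (0.0298). Their difference of 0.31 had the smallest unadjusted interaction p of the family, 0.0141, and an edgeR adjusted p of 0.179.

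Of the basic amino acid carriers, the ornithine carrier Slc25a15 of the urea cycle was lower in hypoxia under both labels. Its means were 25.5 (normoxia) and 20.8 CPM (hypoxia) under WT and 22.8 (normoxia) and 18.5 CPM (hypoxia) under TAZKo, with hypoxia differences of −0.30 and −0.31 (edgeR adjusted p = 0.00298 and 0.00307) that held under every alternative. Slc25a29, a carrier of arginine and lysine, was at 5.44, 4.47 and 4.35 CPM (normoxia) and 3.65, 2.74 and 2.55 CPM (hypoxia) under WT, and at 5.34, 5.33 and 5.19 CPM (normoxia) and 4.71, 5.71 and 4.15 CPM (hypoxia) under TAZKo. The WT hypoxia libraries lay below all others. Its hypoxia difference was −0.68 under WT (edgeR adjusted p = 0.00307) and −0.12 under TAZKo (edgeR adjusted p = 0.55), and the difference between these responses, 0.57, did not pass (edgeR adjusted p = 0.222). In hypoxia it was higher under TAZKo by 0.72 (edgeR adjusted p = 0.00371).

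The largest called difference toward higher levels under TAZKo was that of Slc25a48 (ENSMUSG00000021509, chr13:56438355-56474239), the gene of the first upstream sequence above, which is related to the carnitine carriers and has been linked to choline uptake. It was at 2.39, 1.97 and 1.99 CPM in WT normoxia and 5.01, 4.29 and 4.39 CPM in TAZKo normoxia. In hypoxia it was at 2.50, 2.87 and 2.95 CPM under WT and 7.10, 8.47 and 6.48 CPM under TAZKo. All 6 TAZKo libraries exceeded all 6 WT libraries. The label difference was 1.11 ± 0.146 log2, or 2.15-fold, and 1.40 ± 0.135, or 2.64-fold, in normoxia and hypoxia (edgeR adjusted p = 6.87e-05 and 4.4e-06). It was the only member called with a 2-fold difference between labels in normoxia, where 5.96% of all genes were. Hypoxia raised it by 0.69 under TAZKo (edgeR adjusted p = 0.000562). Under WT the hypoxia difference was 0.40 (edgeR adjusted p = 0.0487), a call lost in 19 of its 20 alternatives, among them 11 of the 12 fits without 1 library, all but that without WT normoxia library 1, and the replicate block (0.0543). The difference of the responses was 0.29 (edgeR adjusted p = 0.53).

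The carnitine-acylcarnitine carrier Slc25a20, which brings fatty acids to β-oxidation, was lower in hypoxia under TAZKo, with a log2 difference of −0.22 (edgeR adjusted p = 0.0159), with means of 39.1 CPM in normoxia and 33.6 CPM in hypoxia. Slc25a38, a glycine carrier needed for haem synthesis, and Slc25a44, a carrier of branched-chain amino acids, were not called. Slc25a38 differed by −0.25 in WT hypoxia (edgeR adjusted p = 0.0818, and 0.0487 with the replicate block).

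**Figure D3:**
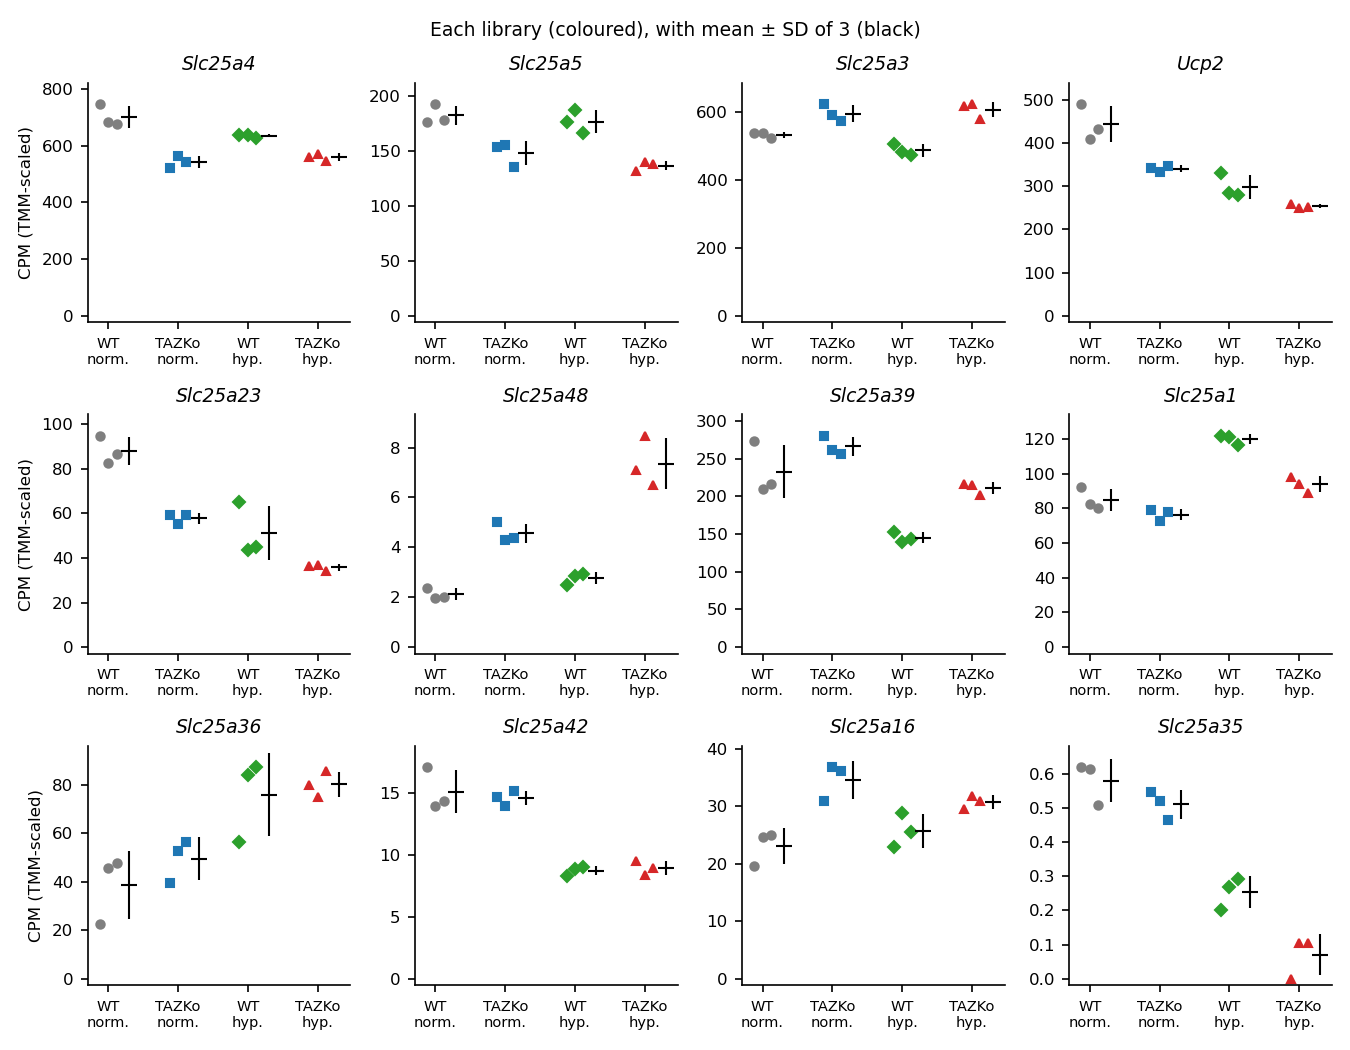
TMM-scaled CPM of 12 members in each of the 12 libraries (coloured points) with the mean ± SD of each group (black), on linear axes of different height. All Slc25a48 libraries under the TAZKo label lie at 4.29 CPM or above, and all under the WT label at 2.95 CPM or below.

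The mitoferrins, which bring iron into the matrix for haem and iron-sulphur clusters, had differences of opposite sign. Slc25a37 (mitoferrin-1) was at 49.6, 62.3 and 56.2 CPM (normoxia) and 66.7, 64.2 and 70.9 CPM (hypoxia) under WT, and at 64.0, 67.8 and 69.6 CPM (normoxia) and 74, 75.1 and 76.4 CPM (hypoxia) under TAZKo. Slc25a28 (mitoferrin-2) was at 44.5, 36.9 and 34.5 CPM (normoxia) and 34.2, 30.6 and 33.3 CPM (hypoxia) under WT, and at 30.4, 28.7 and 28.9 CPM (normoxia) and 26.7, 27.5 and 29.1 CPM (hypoxia) under TAZKo. The former was lowest and the latter highest in WT normoxia, and the reverse held in TAZKo hypoxia. In normoxia Slc25a28 was lower under TAZKo, with a log2 difference of −0.40 (edgeR adjusted p = 0.0037), a call that held under every alternative. Slc25a28 lies on chromosome 19, whose tested genes had a median label difference of −0.268 in normoxia and −0.282 in hypoxia. The part of this in the result, and in the label differences of the mitoferrin ratio below, was not tested. Slc25a37 was higher there by 0.26 (edgeR adjusted p = 0.0198), a call that ended without WT normoxia library 3, TAZKo normoxia library 2 or 3, WT hypoxia library 2 or any TAZKo hypoxia library (up to 0.136).

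The ratio of Slc25a37 to Slc25a28 counts was lowest in WT normoxia and highest in TAZKo hypoxia. It was 1.12, 1.69 and 1.63 in WT normoxia, 1.95, 2.09 and 2.13 in WT hypoxia, 2.11, 2.36 and 2.41 in TAZKo normoxia and 2.77, 2.73 and 2.62 in TAZKo hypoxia. WT hypoxia and TAZKo normoxia, which overlap, were the middle groups. The log2 ratio differed by 0.66 between labels in normoxia and 0.40 in hypoxia, and by 0.50 and 0.24 between conditions under WT and TAZKo. The libraries separated in these 4 comparisons (exact permutation p = 0.1 each, the smallest that 3 against 3 can give, adjusted p = 0.16 over the 8 ratio tests). Without WT normoxia library 1 the 2 differences that involve its group were 0.47 and 0.31. Under hypoxia the single-gene values were −0.24 for Slc25a28 under WT (edgeR adjusted p = 0.0366, lost without WT normoxia library 1 at 0.135 and without WT hypoxia library 2 at 0.0535) and −0.08 under TAZKo (0.512). For Slc25a37 they were 0.26 under WT (edgeR adjusted p = 0.0112, lost without WT normoxia library 3, WT hypoxia library 1 or 3, TAZKo normoxia library 2 or any TAZKo hypoxia library, up to 0.145) and 0.16 under TAZKo (0.103). Between labels in hypoxia neither gene was called, at −0.24 and 0.16 (edgeR adjusted p = 0.0555 and 0.131).

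**Figure D4:**
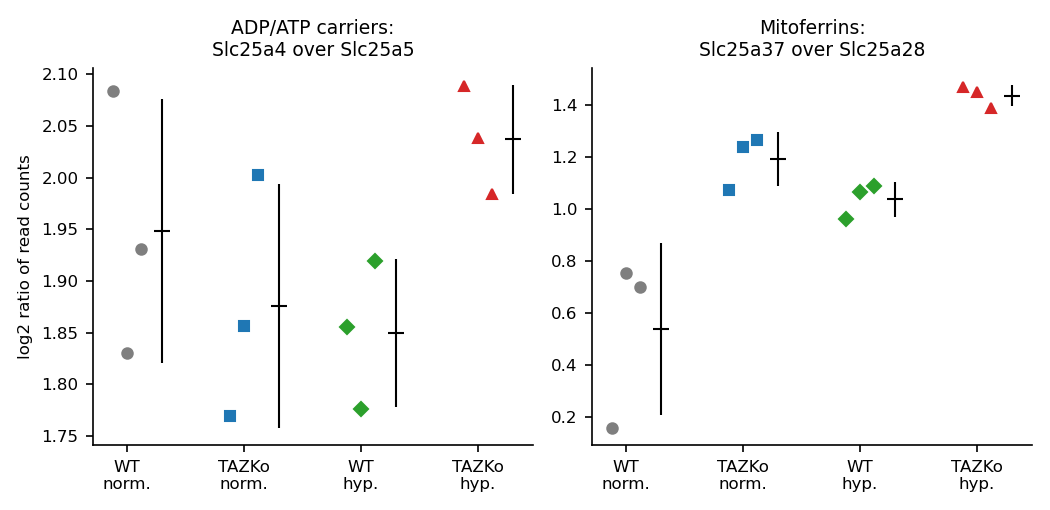
Log2 ratio of the counts of Slc25a4 to Slc25a5 (left) and of Slc25a37 to Slc25a28 (right) in each library (coloured points) with the mean ± SD of each group (black). The mitoferrin ratio spans 0.16 to 0.76 in WT normoxia and 1.39 to 1.47 in TAZKo hypoxia, whereas the ADP/ATP carrier ratio separates in hypoxia alone, between the labels.

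The 10 tested nucleotide and cofactor carriers gave 4 calls between labels in normoxia, all higher under TAZKo (Slc25a16, Slc25a17, Slc25a33 and Slc25a51). Of all genes, 30.4% were called there and 15.6% were called higher. Among these calls only that of Slc25a16 held under every alternative. Slc25a17 was also higher under TAZKo in hypoxia. Hypoxia gave 2 higher (Slc25a33, Slc25a36) and 4 lower (Slc25a17, Slc25a26, Slc25a42, Slc25a47) under WT and 1 higher (Slc25a36) and 2 lower (Slc25a42, Slc25a47) under TAZKo, that is 60% and 30% of the class against 51% and 43.8% of all genes. Slc25a42, which carries coenzyme A, was at 17.1, 13.9 and 14.3 CPM (normoxia) and 8.30, 8.84 and 9.02 CPM (hypoxia) under WT, and at 14.7, 14.0 and 15.1 CPM (normoxia) and 9.48, 8.41 and 8.92 CPM (hypoxia) under TAZKo. Its levels separated by condition and overlapped between labels. The hypoxia differences were −0.79 and −0.71 under WT and TAZKo (edgeR adjusted p = 1.17e-05 and 3.81e-05), the smallest of the family in each comparison, and held under every alternative. Slc25a16, another carrier linked to coenzyme A, was higher under TAZKo in normoxia by 0.58 (edgeR adjusted p = 0.00105), with means of 23.1 and 34.6 CPM. In hypoxia the label difference was 0.26 (edgeR adjusted p = 0.0835). Slc25a16 shares chromosome 10 with Slc25a3, where the median label difference was 0.314 in normoxia. Slc25a17, the carrier of coenzyme A, FAD and NAD in peroxisomes, was at means of 97.5 (normoxia) and 81.7 CPM (hypoxia) under WT and 113 (normoxia) and 104 CPM (hypoxia) under TAZKo. It was higher under TAZKo in hypoxia by 0.35 (edgeR adjusted p = 0.00184) and in normoxia by 0.22 (edgeR adjusted p = 0.0298), the latter lost in 11 of the 12 fits without 1 library (up to 0.182), all but that without WT normoxia library 2.

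Calls of the other cofactor carriers were small. The NAD carrier Slc25a51 was higher under TAZKo in normoxia by 0.21 (edgeR adjusted p = 0.0358, lost in 10 of the 12 fits without 1 library). The S-adenosylmethionine carrier Slc25a26 was lower in WT hypoxia at −0.30 (edgeR adjusted p = 0.021, lost without WT normoxia library 1 at 0.0673). Under TAZKo it was not called, with hypoxia differences of −0.30 to −0.22 without 1 library. Slc25a47, best known from liver, was lower in hypoxia at −0.36 under WT (edgeR adjusted p = 0.0218, lost without WT normoxia library 1 at 0.0543) and at −0.54 under TAZKo (edgeR adjusted p = 0.00207, held under every alternative).

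The pyrimidine nucleotide carriers Slc25a33 and Slc25a36 are named here after their values were seen. Slc25a36 was at 22.5, 45.6 and 47.6 CPM (normoxia) and 56.4, 84.1 and 87.2 CPM (hypoxia) under WT, and 39.4, 52.7 and 56.2 CPM (normoxia) and 79.9, 74.9 and 85.5 CPM (hypoxia) under TAZKo. The hypoxia libraries lay above the normoxia libraries of their label. Hypoxia raised it by 0.98 under WT (edgeR adjusted p = 0.00323), which held under every alternative with log2 differences from 0.71 to 1.1. Under TAZKo the rise was 0.69 (edgeR adjusted p = 0.0254), a call that ended without TAZKo hypoxia library 1, 2 or 3 or TAZKo normoxia library 1 or 2 (0.0573 to 0.125). Slc25a33 rose in WT hypoxia by 0.49 (edgeR adjusted p = 0.00184), with means of 14.9 and 20.8 CPM, and held under every alternative. Its call between labels in normoxia, 0.37 (edgeR adjusted p = 0.0189), ended without TAZKo normoxia library 1 or 2 or WT normoxia library 3 (0.059 to 0.136). In TAZKo hypoxia it differed by 0.26 without a call (edgeR adjusted p = 0.0604). Counts of Slc25a33 are uncertain because 12.6% of its 50-base words are shared with other genes and 14.9% of its exons overlap the antisense gene Gm13068, and the library kit does not mark strand.

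Several members were lowest by far in WT normoxia library 1. Slc25a46, an outer membrane member tied to mitochondrial dynamics, was at 29.1 CPM there against 64.8 and 65.3 CPM in the other WT normoxia libraries. The glutathione carrier Slc25a40 was at 12.9 CPM against 25.5 and 27.2 CPM, and the folate carrier Slc25a32 at 31.5 CPM against 48.2 and 46.5 CPM. In WT hypoxia these 3 differed by 0.39, 0.38 and 0.27 without a call (edgeR adjusted p = 0.156, 0.147 and 0.105), and passed with the replicate block (0.0385, 0.0273 and 0.0142). Without 1 library these differences fell as low as 0.097, 0.116 and 0.102, and no such fit called them. The median spread over the 41 members, as the coefficient of variation, was 9.26% in WT normoxia and 3.89% to 5.69% in the other groups.

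The glutathione carrier Slc25a39, needed for the import of glutathione into mitochondria, was lower in hypoxia and, within hypoxia, higher under TAZKo. It was at 273, 209 and 216 CPM (normoxia) and 153, 140 and 143 CPM (hypoxia) under WT, and 280, 262 and 256 CPM (normoxia) and 216, 214 and 201 CPM (hypoxia) under TAZKo. WT and TAZKo overlapped in normoxia, through WT normoxia library 1 alone, and separated in hypoxia. The hypoxia difference was −0.68 ± 0.089 under WT (edgeR adjusted p = 2.56e-05) and −0.34 ± 0.088 under TAZKo (edgeR adjusted p = 0.00673). The label difference was 0.54 ± 0.089 in hypoxia (edgeR adjusted p = 0.000434) and 0.19 ± 0.088 in normoxia (0.117, and 0.0285 with the replicate block). These 3 calls held under every alternative. Without 1 library the label difference in normoxia ran from 0.09 to 0.32 (edgeR adjusted p 0.000545 to 0.488), so its call depended on the libraries kept. The difference of the responses, 0.34, was not called (edgeR adjusted p = 0.189). Slc25a40, its paralogue, had no call in any comparison without the replicate block.

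Of Ucp1, Ucp2 and Ucp3, Ucp2 alone was above the filter, as were the related Slc25a14, Slc25a27 and Slc25a30. Ucp2, expressed widely and thought to carry C4 metabolites, was at 491, 409 and 433 CPM (normoxia) and 330, 284 and 281 CPM (hypoxia) under WT, and 343, 333 and 348 CPM (normoxia) and 259, 251 and 252 CPM (hypoxia) under TAZKo. It was highest in WT normoxia and lowest in TAZKo hypoxia, and the label groups did not overlap within a condition. The hypoxia differences were −0.57 under WT and −0.43 under TAZKo (edgeR adjusted p = 2.73e-05 and 0.000472), and the label difference in normoxia was −0.38 (edgeR adjusted p = 0.0017). In hypoxia the label difference was −0.23 (edgeR adjusted p = 0.0304), which ended without TAZKo hypoxia library 1, 2 or 3 or WT hypoxia library 1 (0.0504 to 0.0955), and with upper-quartile or library-size scaling (0.0522 each). Slc25a27, also called Ucp4, was lower in TAZKo hypoxia, at a log2 difference of −0.49 (edgeR adjusted p = 0.00192), with means of 10.8 and 7.66 CPM. In WT hypoxia it was not called, at −0.27 to −0.20 in the fits without 1 library. Slc25a14 and Slc25a30 were not called.

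Among members without an assigned substrate, Slc25a35 (ENSMUSG00000018740, chr11:68968131-68974365) had the largest hypoxia differences and the lowest counts of the tested members. Its counts were 14 in each of the 3 WT normoxia libraries, 4, 6 and 8 in WT hypoxia, 13, 12 and 15 in TAZKo normoxia and 0, 3 and 3 in TAZKo hypoxia. Levels were 0.619, 0.614 and 0.507 CPM (normoxia) and 0.200, 0.269 and 0.291 CPM (hypoxia) under WT, and 0.547, 0.520 and 0.464 CPM (normoxia) and 0, 0.104 and 0.105 CPM (hypoxia) under TAZKo. The summed counts of WT were 42 in normoxia (95% Poisson interval 30.3 to 56.8) and 18 in hypoxia (10.7 to 28.4), and those of TAZKo were 40 (28.6 to 54.5) and 6 (2.2 to 13.1), so that every TAZKo hypoxia library was at or under the floor. The hypoxia difference was −1.15 under WT (edgeR adjusted p = 0.0139) and −2.65 under TAZKo (edgeR adjusted p = 0.000308), the only 2-fold calls among members for hypoxia, where 11.2% and 8.44% of all genes were such calls. The size of the second depends on counts of 3 or fewer. Slc25a35 passed the low-count filter through its normoxia libraries, where its counts were higher, which favours a fall in hypoxia. Its hypoxia p-values are therefore not taken as support. Both calls also passed with no filter, which is likewise not taken as support, and both are counted in the member totals above. In hypoxia the label difference of −1.69 (edgeR adjusted p = 0.0242) ended without TAZKo hypoxia library 1 or WT hypoxia library 2 or 3 (0.0599 to 0.114), with DESeq2 (0.0626) and with no filter (0.061). With Slc25a48 it made 2 members with a 2-fold call there, against 5.82% of all genes. Of its 50-base words 25.8% are shared and 31.3% of its exons overlap Rangrf on the other strand, which had 0 or 1 count in every library.

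Slc25a53 was higher in WT hypoxia by 0.35 (edgeR adjusted p = 0.00406), with means of 6.31 and 8.06 CPM, a call that ended with no filter (0.121) and with only the 6 WT libraries in the fit (0.055). Its label difference in normoxia, 0.26 (edgeR adjusted p = 0.0361), was lost in all 12 fits without 1 library (0.0505 to 0.144). Slc25a43 was lower in hypoxia under TAZKo, at −0.42 (edgeR adjusted p = 0.0234). This call ended without TAZKo hypoxia library 1 or TAZKo normoxia library 1 (0.0671 and 0.0587) and with DESeq2 (0.06). Under WT it was not called, with hypoxia differences of −0.39 to −0.21 without 1 library. Slc25a45 was higher in WT hypoxia by 0.48 (edgeR adjusted p = 0.0374) and, in hypoxia, lower under TAZKo at −0.50 (edgeR adjusted p = 0.0432). These calls were lost in 9 and 6 of the 12 fits without 1 library, and Slc25a45 lies on chromosome 19. Without a call in the fit of all 12 libraries were its label difference in normoxia, −0.46, and its hypoxia difference under TAZKo. The latter was 0.36 to 0.46 without 1 library.

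Genes of the import route of the carriers and other inner membrane transporters, listed by role, were counted beside the family. Of 13 tested import genes, 1 was higher and 1 lower under TAZKo in normoxia and 5 were higher in hypoxia, that is 15.4% and 38.5% called against 30.4% and 32.8% of all genes. Hypoxia gave 2 higher and 7 lower under WT and 1 higher and 4 lower under TAZKo, 69.2% and 38.5% against 51% and 43.8%. Timm10, a chaperone that escorts carriers through the intermembrane space, was lower in hypoxia, with log2 differences of −0.81 and −0.48 under WT and TAZKo (edgeR adjusted p = 3.01e-05 and 0.00248). Agk, a subunit of TIM22, was at −0.91 and −0.68 (edgeR adjusted p = 7.62e-05 and 0.000677), and Timm22, its channel, at −0.42 and −0.30 (edgeR adjusted p = 0.000354 and 0.00467). Tomm20, a receptor of the outer membrane, was higher by 0.33 and 0.59 (edgeR adjusted p = 0.001 and 1.17e-05). Of 12 other inner membrane transporters and SLC25-like proteins, 1 was higher and 6 lower in WT hypoxia, 1 higher and 7 lower in TAZKo hypoxia, and 1 higher and 1 lower between labels in each condition. These were 58.3% and 66.7% for hypoxia and 16.7% in each label comparison, against the same backgrounds.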

How the data were processed

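RNA was isolated with Trizol and libraries were made with the Illumina TruSeq RNA Sample Preparation v2 kit, per the labels' protocols. The authors deposited 1 table per library of whole-number read counts per Ensembl gene ID, with no header. Their genome build is mm10 per the submitters' processing notes. The aligner, counting program, strand setting and annotation release are not given in the sources used here. Of 48709 IDs, 48349 matched GENCODE M21, which gave symbols, exon lengths and coordinates on GRCm38, and 360 did not.

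From these counts, genes passing filterByExpr (14408) were fitted with 1 coefficient per group over all 12 libraries, after TMM scaling, by the quasi-likelihood test of edgeR 4.0.16 (with limma 3.58.1 in R 4.3.3). Benjamini-Hochberg adjustment ran over all tested genes, with a threshold of 0.05. Log2 values are fitted differences with their SE, CPM values are TMM-scaled, and n is 3 libraries per group. The common biological coefficient of variation was 8.62%. The edgeR fit of the label difference in normoxia was tested on simulated counts in which a small share of genes changed. The other comparisons, the ratio tests and the block were not tested in this way. Ratios of counts had 0.5 added to each count. Alternatives were other scalings, DESeq2 1.42.0, other filters, the replicate number or sequencing lane as a covariate, a 2-fold threshold, only the 6 libraries compared, and leaving out each library in turn.

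The members, their substrate classes and the other lists were chosen with earlier results of these data known. By the rule for named members, Slc25a4, Slc25a5 and those called with a log2 difference of at least 1 (Slc25a35, Slc25a48) are given with every library, and each class has up to 3 examples, those with the smallest adjusted p. The library values of other members, and further names, were added after their values were seen. Of the tested members, 1 is counted in the totals and not reported here by name or drawn in the plots.

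Replicate numbers come from the sample titles, which do not say what they mark. Deviations of same-numbered libraries from their group means correlated at 0.149 to 0.354 between labels in normoxia and 0.152 to 0.368 between conditions under WT. Differently numbered libraries gave −0.293 to 0.116 and −0.28 to 0.18. The own number was the best match for 3 of 3 libraries in normoxia and 2 of 3 under WT. Every library 1 was on lane 4 and every library 3 on lane 5, so number and lane are partly confounded. The highest values, 0.354 and 0.368, both involve WT normoxia library 1. WT normoxia library 3 correlated at 0.152 with WT hypoxia library 3 and at 0.18 with library 2. Deviations from a mean of 3 sum to 0, which lowers the values of unlike numbers. Pairing by number is therefore not shown, and the block was fitted over all 12 libraries. For labels in normoxia and hypoxia under WT, blocked values stand beside results where the call changed, as an alternative fit only. In the other comparisons a correlation was under 0.1.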

Additional observations from a re-analysis of the deposited data

How the results depend on the processing

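No call of a member reversed its direction under any alternative. Of the uncalled values printed, that of Slc25a4 in TAZKo hypoxia changed sign, to −0.0513 with library size alone. Without 1 library it ran from −0.0188 (without TAZKo normoxia library 1) to 0.0426. With only the 6 libraries compared in the fit, members called between labels in normoxia were 8 and members called for hypoxia under TAZKo were 27. Requiring a log2 difference of at least 1 left 1 and 2 members between labels in normoxia and hypoxia and 1 each for hypoxia under WT and TAZKo, and left 858, 839, 1610 and 1216 of all genes in these 4 comparisons and 82 for the interaction. Without 1 library, members called between labels ran from 7 to 14 in normoxia and from 9 to 22 in hypoxia. With no filter 1 member passed the interaction. Genes called for the interaction over all genes were 574 with DESeq2, 727 with no filter, 639 with the replicate block and 174 to 711 without 1 library, against 350. The cause of these shifts was not tested, except that a size threshold leaves less to call. All genes called moved from 4384 to 3314 between labels in normoxia and from 6309 to 7771 for hypoxia under TAZKo with only the 6 libraries compared.

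The replicate block gave 17 members between labels in normoxia and 28 for hypoxia under WT, where same-numbered libraries correlated but pairing was not shown. It gave 5212 and 8032 of all 14408 genes there, against 4384 and 7355 without it. Between labels in hypoxia it gave 17 (7 higher, 10 lower) and for hypoxia under TAZKo 19 (5 higher, 14 lower), where the same-numbered correlations ran from −0.0237 to 0.121 and from −0.0245 to 0.0946, so these libraries share only a number. All genes called there were 5518 and 7010, against 4723 and 6309. The replicate block gave 0 members for the interaction. With sequencing lane as a covariate, members called were 13, 15, 19 and 17 in the 4 pairwise comparisons.

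Counts limit Slc25a35 and the 9 members under the filter, for which differences were not detectable at this depth. Counts of genes with near-identical copies or antisense partners are uncertain because the handling of such reads is not given in the sources used here.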
